A study of Mus musculus with 6 samples.

Results

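Cntfr, Met, Npr2, Tgfbr1, Epha7, Wnt2, Wnt16, Pdgfd and Gdf6 encode receptors for growth factors, cytokines, natriuretic peptides and ephrins, or secreted ligands of such receptors. These 9 genes, 5 receptors and 4 ligands, were chosen by name and function from the 53546 gene features that the deposited counts list. They were further limited to features whose exons lie where the gene of that name lies on the mouse build GRCm38. 1740 features (3.25%) passed this check, which asked that 90% or more of the exonic bases fall on the gene's own exons, and all 9 members were among them. For the other features the name could not be relied on, so a name alone was not used here.

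The data are RNA sequencing counts of 6 mouse libraries, 3 from the spinal cord injury group and 3 from the control group, all of strain C57BL/6. No genetic change, drug or time after injury is named for either group, and the series text gives an age of 21 days. The tissue is named as spinal cord and as intervertebral disc, while the series text names retina. The labels do not state whether each library is from its own animal, and the p-values therefore reflect the spread among 6 libraries, part of which may be technical. Total counts were 2905828, 2847578 and 2385703 in injury 1, 2 and 3, and 3896310, 3921627 and 2615213 in control 1, 2 and 3. Values are CPM, the count of a gene scaled to a library total of 1000000.

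Cells receive these signals in different ways. Cntfr is a lipid-anchored receptor that binds ciliary neurotrophic factor and hands it to the signalling chains gp130 and Lifr, and Met is the receptor tyrosine kinase for hepatocyte growth factor. Npr2 is a guanylate cyclase switched on by C-type natriuretic peptide, Tgfbr1 is the type I serine/threonine kinase of the TGF-beta receptor, and Epha7 is a receptor tyrosine kinase for the ephrins displayed on neighbouring cells. Among the ligands, Wnt2 and Wnt16 bind Frizzled receptors, Pdgfd is a platelet-derived growth factor that acts through PDGF receptor beta, and Gdf6 belongs to the bone morphogenetic proteins. In the nervous system Cntfr and Epha7 are best known from neurons, and in epithelia Met is known for growth and repair.

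Promoter sequences are printed for the members that set the control libraries apart most clearly, so that high and low genes can be read beside their start sites. They come from RefSeq on GRCm38.p6, whose promoter table held 8 of the 9 members, all but Gdf6. Each run is written 5′ to 3′ on the gene's strand. It ends at the base before the RefSeq start, except that of Met, which stops where the GENCODE exons of Met begin, 157 bases earlier. Capitals mark a GC box (GGGCGG on either strand). The runs are chr4:41696038-41696187 on the minus strand for Cntfr, chr4:43631785-43631934 for Npr2, chr4:28812981-28813130 for Epha7, chr9:6168336-6168485 for Pdgfd and chr6:17463707-17463799 for Met, the last 4 on the plus strand.
Cntfr: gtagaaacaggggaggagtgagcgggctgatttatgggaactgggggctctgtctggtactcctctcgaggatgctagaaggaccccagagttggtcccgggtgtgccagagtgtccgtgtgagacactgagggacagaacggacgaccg
Npr2: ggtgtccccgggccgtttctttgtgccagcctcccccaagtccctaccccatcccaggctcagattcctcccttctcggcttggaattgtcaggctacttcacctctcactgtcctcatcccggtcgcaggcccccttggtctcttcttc
Epha7: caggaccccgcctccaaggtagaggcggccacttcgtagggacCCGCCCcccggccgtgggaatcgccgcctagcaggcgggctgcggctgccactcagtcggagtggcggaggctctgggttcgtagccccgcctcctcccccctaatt
Pdgfd: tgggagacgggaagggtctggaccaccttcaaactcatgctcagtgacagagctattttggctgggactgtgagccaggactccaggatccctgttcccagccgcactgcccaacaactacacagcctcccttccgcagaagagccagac
Met: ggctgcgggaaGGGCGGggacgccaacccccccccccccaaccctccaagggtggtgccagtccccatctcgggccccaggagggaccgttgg

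In the full 250 bases before the start, a GC box stood 3 times in the Met promoter, 2 times in that of Tgfbr1 and 1 time each in those of Epha7 and Wnt2. Those of Cntfr, Npr2, Wnt16 and Pdgfd held 0. Over 27025 mouse promoters of the same length, 33.0% held at least 1. The box named CCAAT stood 2 times each in the Tgfbr1 and Wnt16 windows and 1 time each in those of Epha7 and Wnt2, against 34.5% of all promoters with at least 1. The TATAAA box was found 1 time, in Pdgfd (13.0% of all promoters), and the AP-1 site TGANTCA 1 time, in Met (6.85% of all). All motifs were searched on both strands. The share of G and C was 74.0% for Met and 74.8% for Tgfbr1, 58.8% for Cntfr, 64.4% for Npr2, 69.2% for Epha7, 63.6% for Wnt2, 59.2% for Wnt16 and 53.6% for Pdgfd, against a median of 52.0%. 157 of Met's 250 bases and 140 of Wnt2's lie on exons that the GENCODE annotation gives these genes, and the Cntfr window lies off the exons of Cntfr, in an intron of its longest span. These matches describe letters only.

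Across the libraries the receptors and ligands fell into 3 patterns. Cntfr, Npr2, Epha7 and Pdgfd were higher in all 3 injury libraries than in controls 1 and 2. Met and Tgfbr1 were lower in all 3 injury libraries than in controls 1 and 2. Of 15320 tested features, 29.4% lay above both of these controls in this way and 48.3% below, so such a split was common. Wnt2, Wnt16 and Gdf6 had at most 29 counts in any library. For the 6 genes with more counts, control 3 lay close to the injury libraries: the highest of those 4 libraries exceeded the lowest by 1.27-fold (Npr2) to 1.54-fold (Pdgfd).

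The controls were unlike one another over many genes, and so each library is given singly. Marker genes were read where a gene could be placed on the annotation. Summed over 7 of 15 neuron markers, the injury libraries held 2721, 3408 and 3332 CPM, and controls 1, 2 and 3 held 24.6, 36.5 and 2982 CPM. For 5 of 13 oligodendrocyte markers the sums were 2966 to 3305 CPM in injury, against 13.3, 46.9 and 2737 CPM in controls 1, 2 and 3, and for 3 of 10 astrocyte markers 1798 to 1962 CPM in injury, against 194, 54.3 and 1817 CPM. Control 3 thus stood with the injury libraries for the sums of these nerve tissue lists, and controls 1 and 2 stood far below. Single genes held most of the neuron and astrocyte sums. Map2 alone had 2435, 3121 and 3032 CPM in injury 1, 2 and 3, and Ptprz1 had 1773, 1928 and 1756 CPM. The astrocyte marker Aldh1l1 went the other way, with 181 and 42.1 CPM in controls 1 and 2 against 2.06 to 6.71 CPM in injury. The other markers of these lists were lower in controls 1 and 2 than in injury. 7 of 18 markers of the kidney proximal tubule summed to 7.13 to 16.5 CPM in injury, against 4361, 2188 and 14.5 CPM in controls 1, 2 and 3. The phosphate transporter Slc34a1, one of its defining genes, was at 0 counts in injury 1, 2 and 3 and in control 3. The kidney lists ran the other way, high in controls 1 and 2. 9 of 13 markers of the distal nephron summed to 226 to 257 CPM in injury, against 660, 526 and 236 CPM. Calb1, which neurons also express, held most of that sum in injury and control 3, and the other 8 markers summed to 4.92 to 19.3 CPM in injury, against 411, 448 and 4.97 CPM. 3 of 14 chondrocyte and disc markers summed to 41.1 to 67.8 CPM in injury, against 1.03, 4.08 and 51.2 CPM. Skeletal muscle markers (3 of 12) were highest in injury 3, at 144 CPM, and blood cell markers (3 of 8) ranged from 7.02 to 405 CPM in injury, against 20.8, 47.4 and 357 CPM in controls 1, 2 and 3. Controls 1 and 2, though labelled spinal cord, thus held little of the defining markers of neurons and oligodendrocytes. The nerve tissue, kidney and disc sums set controls 1 and 2 apart from the other libraries, as Cntfr, Met, Npr2, Tgfbr1, Epha7 and Pdgfd do below. The muscle and blood sums did not. What part any of these sums has in the results was not tested. In bulk RNA, fewer cells of a type and less RNA per cell cannot be told apart, and which tissue controls 1 and 2 came from was not tested.

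**Figure D1:**
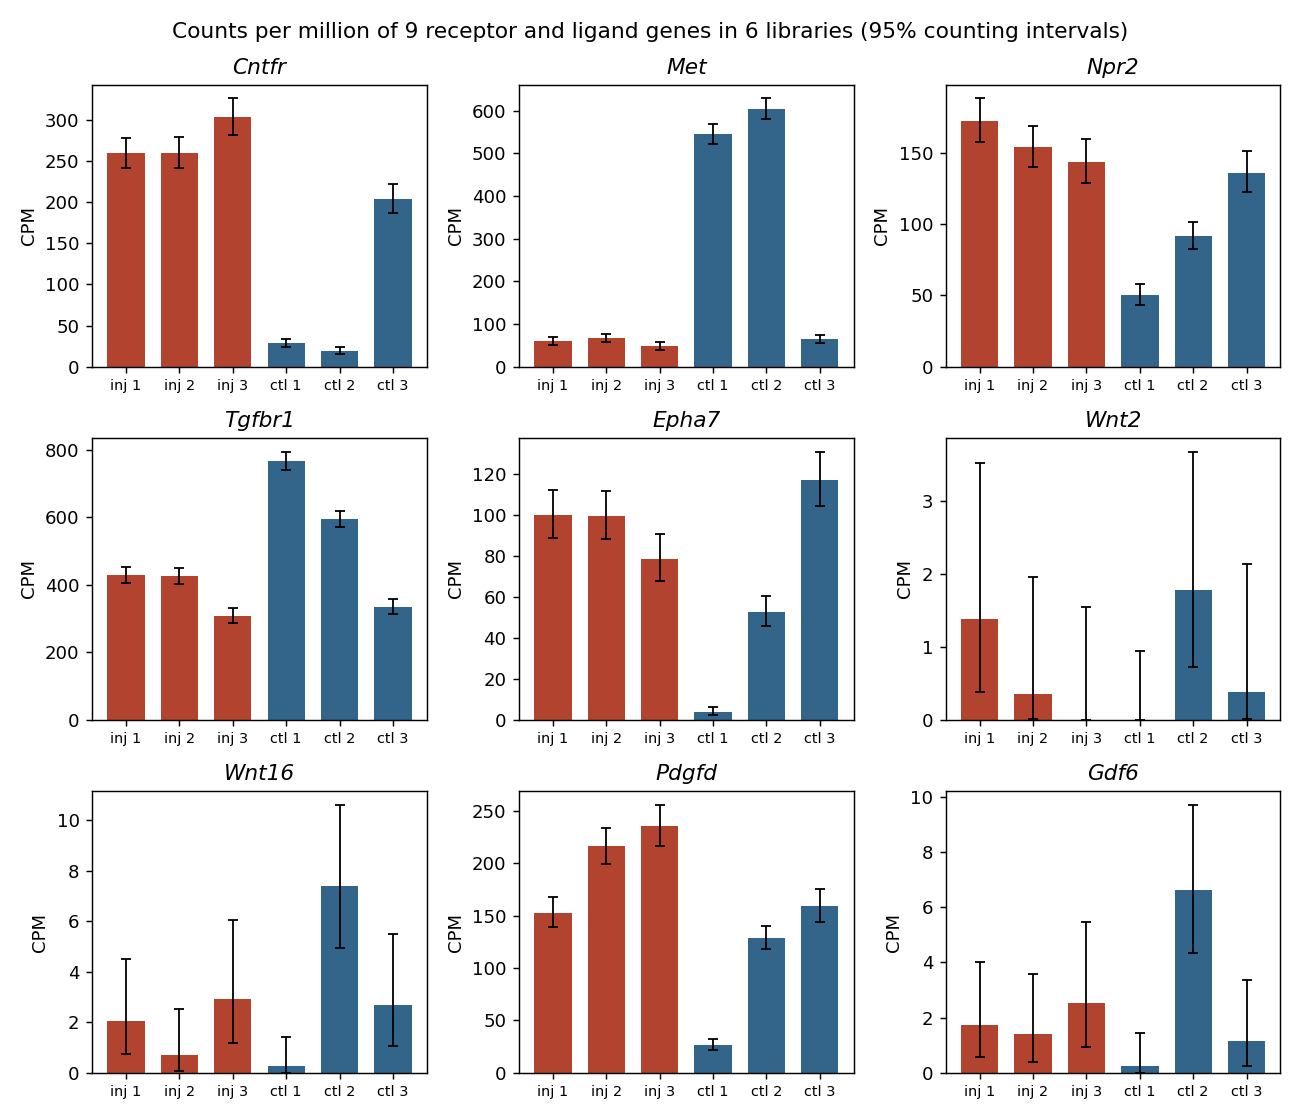
CPM of the 9 genes in each library, injury in red and control in blue, with 95% exact counting intervals as bars and a separate linear axis from 0 for each gene. Control 3 stands near the injury libraries for Cntfr, Met, Npr2, Tgfbr1, Epha7 and Pdgfd, and Wnt2, Wnt16 and Gdf6 stay below 8 CPM.

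Injury against control asks which of these genes differ with spinal cord injury. In edgeR's quasi-likelihood test over all 6 libraries, 0 of the 6 members with enough counts passed an adjusted p of 0.05, and 0 of 12646 features did (0%). 1 member, Met, and 3241 features had an unadjusted p under 0.05. DESeq2 called 1 member, Met (adjusted p = 0.0242, lower), among 1503 features. limma-voom with sample quality weights called 5 members, Cntfr, Npr2, Epha7 and Pdgfd as higher and Met as lower, among 7040 features. The median log2 fold change of the 6 members was 0.88, beside -0.07 over all tested features.

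Against controls 1 and 2 alone, with control 3 left out, edgeR called 4 members higher and 1 lower. The background was wide: 30.2% of 15320 features were called higher and 36.6% lower. Against control 3 alone, 0 of 6 members passed, beside 6.78% of 13857 features, and 2 members, Cntfr and Pdgfd, had an unadjusted p under 0.05, as did 3540 of the features. In that last fit the lone control is assumed to vary as the injury libraries do. The labels do not separate controls 1 and 2 from control 3, so these are fits of the same comparison with libraries left out. The split was itself made from these counts, in which control 3 lay close to the injury libraries. The p-values of these fits do not allow for that choice. They describe the split and are not a separate test of injury, here and in the gene and pathway results below. The fits share the injury libraries.

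Scaling mattered in the fit without control 3. With total count in place of TMM, the median over all features was -0.73, in place of -0.20, and 21.9% of features were called higher and 42.6% lower. Among the members, 2 were then called higher (Cntfr, Npr2) and 2 lower (Met, Tgfbr1). This setting was added after the data were seen, and its effect is given beside each gene. Fitted log2 fold changes use TMM scaling, so they are not the log2 of the CPM ratios.

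**Figure D2:**
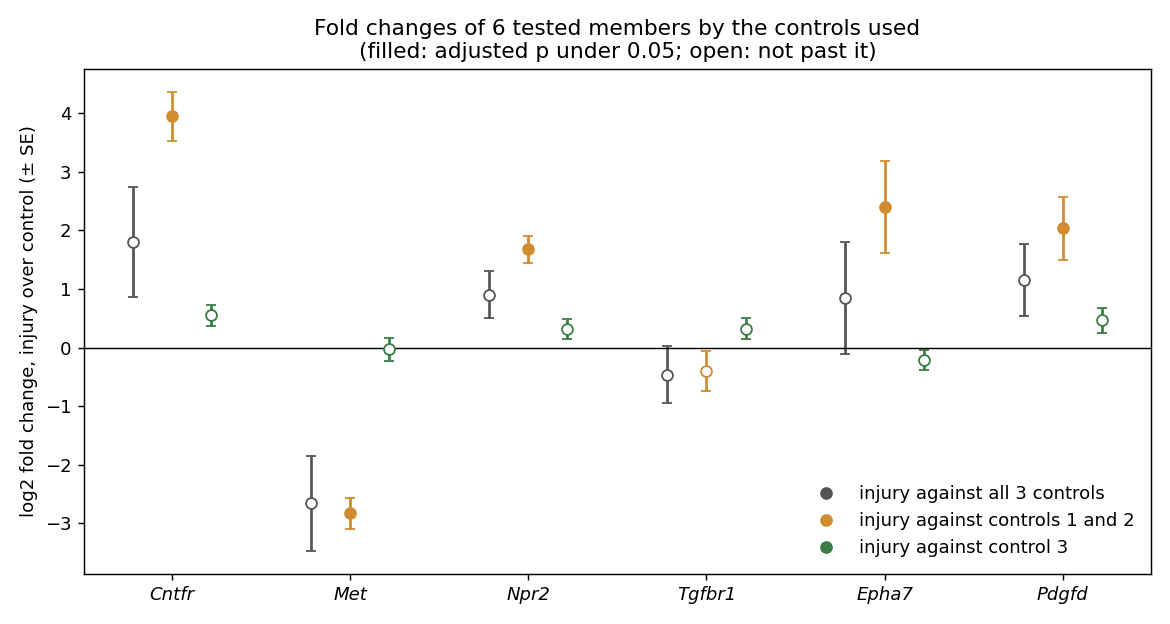
Log2 fold change of injury over control with its standard error for the 6 tested genes, against all 3 controls, controls 1 and 2, and control 3, with filled points past an adjusted p of 0.05. The 5 filled points all belong to the fit against controls 1 and 2, where Cntfr reaches 3.95 and Met -2.83.

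Cntfr, the receptor of ciliary neurotrophic factor, spans chr4:41657498-41697089 on the minus strand with 2782 exonic bases, all on its own exons. Its injury libraries held 260, 260 and 304 CPM, and controls 1, 2 and 3 held 28.2, 19.1 and 204 CPM. All 3 injury libraries were above all 3 controls, with controls 1 and 2 far below control 3. The means were 275 ± 25.3 CPM in injury and 83.8 ± 104 CPM in control (SD, n = 3 each). The log2 fold change over all 6 libraries was 1.80 (SE 0.95, adjusted p = 0.270, edgeR). Against controls 1 and 2 it was 3.95 (SE 0.42, adjusted p = 5.61e-04), and the injury mean was 11.6 times theirs. With total count scaling that value was 3.53 (adjusted p = 2.79e-04). Against control 3 it was 0.55 (SE 0.18, adjusted p = 0.0611), where the injury mean was 1.35 times the control.

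Npr2 converts GTP to cyclic GMP when C-type natriuretic peptide binds it. It spans chr4:43631935-43651244 on the plus strand, and 266 of its 4667 exonic bases (5.70%) also belong to the antisense gene Gm12473. Injury 1, 2 and 3 held 172, 154 and 144 CPM of Npr2, and controls 1, 2 and 3 held 50.3, 91.5 and 136 CPM. Here too the lowest injury library was above the highest control, by a small margin over control 3. Over all 6 libraries the log2 fold change was 0.90 (SE 0.41, adjusted p = 0.220). It was 1.68 (SE 0.23, adjusted p = 0.00129) against controls 1 and 2 and 0.32 (SE 0.17, adjusted p = 0.230) against control 3, all in edgeR. With total count scaling the value against controls 1 and 2 was 1.14 (adjusted p = 0.0151). Reads were counted without strand and reads on both genes were left out, so the shared bases add to neither gene. Gm12473 itself had 9.98, 10.2 and 8.38 CPM in injury, against 1.54, 5.35 and 4.59 CPM in control.

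Cntfr and Npr2 were the 2 members whose injury libraries all lay above all 3 controls, and no member had all 3 below. Of the 12646 tested features 13.7% lay above in this way and 25.4% below.

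Epha7, which takes part in axon guidance and cell sorting, spans chr4:28813131-28967499 on the plus strand with 9884 exonic bases. The injury libraries held 99.8, 99.4 and 78.4 CPM, and controls 1, 2 and 3 held 3.85, 52.8 and 117 CPM. Control 3 was the highest of all 6, and control 1, with 15 counts, the lowest. The mean in injury was 92.5 ± 12.2 CPM and that in control 57.9 ± 56.8 CPM (SD, n = 3 each). Its log2 fold change was 0.85 over all 6 libraries (SE 0.96, adjusted p = 0.542, edgeR). Epha7 rose against controls 1 and 2, by 2.41 (SE 0.79, adjusted p = 0.0319, edgeR), but at 1.71 did not pass with total count scaling (adjusted p = 0.131). Against control 3 the sign was the other way, at -0.22 (SE 0.17, adjusted p = 0.432).

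Met, whose kinase signals through docking and adaptor proteins after hepatocyte growth factor binds, spans chr6:17463799-17573979 on the plus strand. 99.7% of its 7679 exonic bases lie on its GRCm38 exons, with an offset of 1 base. In injury 1, 2 and 3 Met stood at 59.5, 67.1 and 47.8 CPM, and in controls 1, 2 and 3 at 545, 605 and 64.6 CPM. Controls 1 and 2 formed a high pair, while control 3 lay within the range of the injury libraries. Mean values were 58.1 ± 9.72 CPM in injury and 405 ± 296 CPM in control (SD, n = 3 each). The edgeR log2 fold change was -2.66 over all 6 libraries (SE 0.81, adjusted p = 0.117). Met fell against controls 1 and 2, with a log2 fold change of -2.83 (SE 0.26, adjusted p = 3.56e-04), and the injury mean was 0.101 times the mean of those controls. With total count scaling the value was -3.30 (adjusted p = 1.96e-04). Against control 3 the difference was -0.03 (SE 0.20, adjusted p = 0.939), less than the spread between the injury libraries.

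Tgfbr1 phosphorylates Smad proteins once the type II receptor has recruited it. It spans chr4:47353222-47414931 on the plus strand with 6534 exonic bases. The injury libraries held 428, 425 and 307 CPM, and controls 1, 2 and 3 held 768, 594 and 336 CPM. Controls 1 and 2 were above every injury library, and control 3 lay between injury 3 and injury 2. The log2 fold change over all 6 libraries was -0.46 (SE 0.49, adjusted p = 0.521, edgeR), and without control 1 it was 0.05. Its values were -0.40 (SE 0.34, adjusted p = 0.330) against controls 1 and 2 and 0.32 (SE 0.18, adjusted p = 0.257) against control 3. With total count scaling Tgfbr1 passed as lower than controls 1 and 2, at -0.81 (adjusted p = 0.0243).

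Pdgfd is secreted in a latent form and becomes active once its CUB domain is cut off. The gene spans chr9:6168584-6378850 on the plus strand with 3154 exonic bases, and Ddi1 lies within its span on the opposite strand with 0 exonic bases shared. Injury 1, 2 and 3 held 153, 216 and 236 CPM of Pdgfd, and controls 1, 2 and 3 held 26.4, 129 and 159 CPM. Injury 1 was slightly below control 3, and controls 1 and 2 were below all 3 injury libraries. The log2 fold change was 1.15 over all 6 libraries (SE 0.61, adjusted p = 0.275, edgeR). Pdgfd rose against controls 1 and 2, by 2.03 (SE 0.54, adjusted p = 0.0141), but its value of 1.38 with total count scaling did not pass (adjusted p = 0.0915). Against control 3 it was 0.47 (SE 0.21, adjusted p = 0.173).

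The remaining 3 ligands were near the limit of detection. Wnt2, at chr6:17988939-18030584 on the minus strand, had 4, 1 and 0 counts in injury 1, 2 and 3, and 0, 7 and 1 in controls 1, 2 and 3. Wnt16, at chr6:22288226-22298521 on the plus strand, had 6, 2 and 7 counts in injury and 1, 29 and 7 in controls 1, 2 and 3. Gdf6, at chr4:9844372-9862345 on the plus strand, had 5, 4 and 6 counts in injury and 1, 26 and 3 in controls 1, 2 and 3. Control 2 was the highest library for all 3 ligands. None of them passed the filter on low counts, so they were not tested in the fits above.

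Over the 3 injury libraries together, Wnt2 stood at 0.614 CPM (95% exact interval 0.199 to 1.43), and Wnt16 and Gdf6 each at 1.84 CPM (1.03 to 3.04). A count of 0 allows up to 3 counts, which is 1.26 CPM for Wnt2 in injury 3 and 0.770 CPM in control 1. Intervals and limits of this kind cover counting error only. With no filter on low counts, the edgeR log2 fold changes over all 6 libraries were 0.27 for Wnt2 (adjusted p = 0.919), -0.28 for Wnt16 (0.885) and 0.11 for Gdf6 (0.956), where the median over all features was -0.68. The signs for Wnt2 and Gdf6 run against their mean CPM, which was 0.576 in injury and 0.722 in control for Wnt2, and 1.88 in injury and 2.68 in control for Gdf6. No difference of these 3 ligands between injury and control was detected, with few counts and a wide spread among the controls.

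Controls 1 and 2 also differed from each other. Control 2 held 13.7 times the CPM of control 1 for Epha7 (95% exact counting interval 8.12 to 24.9) and 4.87 times for Pdgfd (3.93 to 6.08). For Wnt16, with 29 counts in control 2 and 1 in control 1, the ratio was 28.8 (4.78 to 1177), and for Gdf6, with 26 and 1 counts, it was 25.8 (4.24 to 1059). Wnt2 had 7 counts in control 2 and 0 in control 1, and the lower exact limit of its ratio was 1.43. These 4 members past 4-fold with at least 20 counts, Epha7, Pdgfd, Wnt16 and Gdf6, stand beside 17.9% of 16726 features past 4-fold higher and 2.13% past it lower.

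The other 4 receptors were closer between these libraries. The ratio of control 2 over control 1 was 1.11 for Met (1.05 to 1.18), 1.82 for Npr2 (1.52 to 2.18), 0.774 for Tgfbr1 (0.733 to 0.817) and 0.677 for Cntfr (0.498 to 0.917). The sums of 4 of 8 endothelial markers were 334 CPM in control 2 and 61.3 CPM in control 1, and those of 5 of 10 microglia and macrophage markers 501 and 59.3 CPM. Their part in the ratios was not tested. With 1 library on each side, the ratios compare libraries and not conditions.

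**Figure D3:**
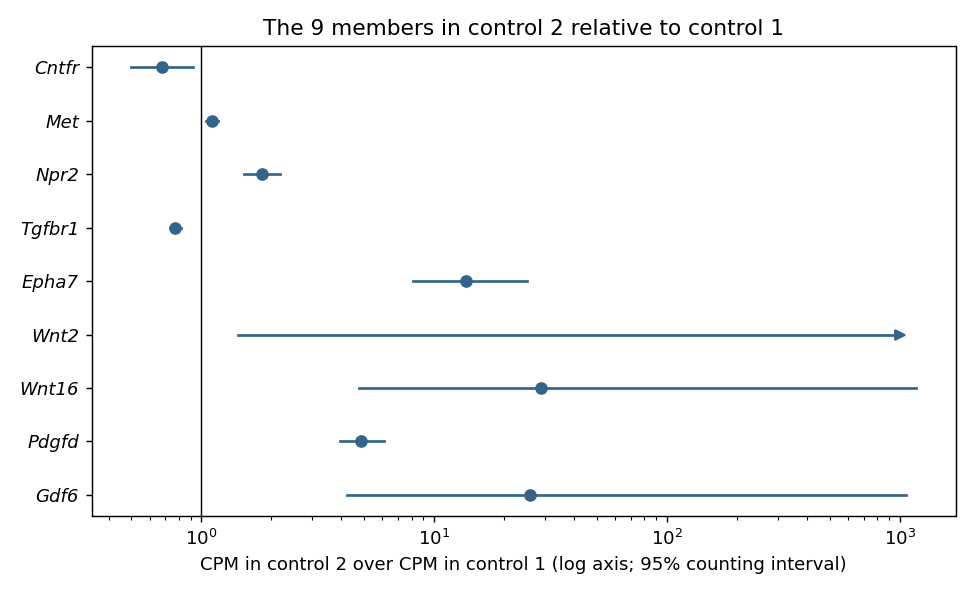
Ratio of CPM in control 2 over control 1 for each gene on a log axis, with 95% exact counting intervals and an arrow where control 1 had 0 counts of Wnt2. Cntfr, Met, Npr2 and Tgfbr1 lie between 0.677 and 1.82, while Epha7, Wnt16, Pdgfd and Gdf6 lie between 4.87 and 28.8.

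Per kilobase of exon, the order of the genes also differed between libraries. In injury, Cntfr led with a mean of 98.7 CPM per kb, followed by Pdgfd (63.9), Tgfbr1 (59.2), Npr2 (33.6), Epha7 (9.36) and Met (7.57). The ranges of Pdgfd (48.4 to 74.7 CPM per kb) and Tgfbr1 (47.0 to 65.6) overlapped, as did those of Epha7 (7.93 to 10.1) and Met (6.22 to 8.73). Gdf6 (0.532), Wnt16 (0.436) and Wnt2 (0.255) came last, with overlapping ranges.

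Among the controls, Tgfbr1 and Met led in control 1 (117 and 70.9 CPM per kb) and in control 2 (90.9 and 78.7). Cntfr had 10.1 CPM per kb in control 1 and 6.87 in control 2. In control 3 Cntfr led again with 73.4 CPM per kb, before Tgfbr1 (51.4) and Pdgfd (50.4), and Met had 8.42. Epha7 had 0.389, 5.34 and 11.8 CPM per kb in controls 1, 2 and 3.

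**Figure D4:**
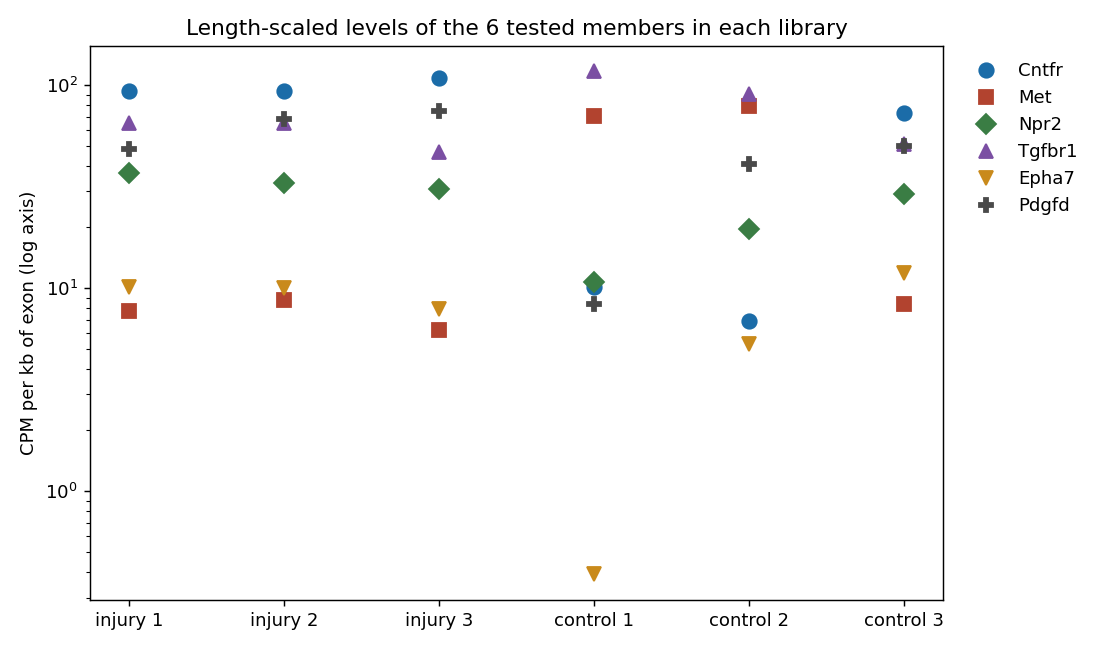
CPM per kilobase of exon for the 6 genes with enough counts, in each library, on a log axis. Cntfr is the top point in the injury libraries and control 3, while Tgfbr1 and Met are the top points in controls 1 and 2.

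To set the members beside the other genes of their pathways, counts were summed over all features that lie on 1 annotated gene, called here reading by position. It covered 10611 genes and 56.0% of counts, and the values may miss part of a gene. Many list genes could not be read, so the tested genes stand for only a part of each pathway. It also assumes that the counted coordinates are those of GRCm38, which the sources used here do not state. Of the list genes that could be tested by position, 0 passed over all 6 libraries in each of the 7 lists, beside 0 of 5128 genes (0%). Each list held 0 to 4 genes with an unadjusted p under 0.05, of 2 to 10 tested. The shares were highest in the gp130 list (4 of 8) and the PDGF list (2 of 4). In the edgeR fit by feature, which counts other units, 3241 of 12646 had such a p. With so few genes in each list, these counts were not taken to set the lists apart. Against control 3, 0 passed in each, beside 38 of 5367 genes (0.708%). The counts below are against controls 1 and 2, where 28.1% of 5646 genes were called higher and 31.5% lower. With total count scaling these shares were 26.3% and 29.7%, and 1 list gene named here, Cbl, lost its call.

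Most tested genes of the list drawn up around Cntfr were lower in injury than in controls 1 and 2. The list of the ciliary neurotrophic factor and gp130 pathway held 20 genes, of which 8 were tested. Of these 8, 0 rose and 5 fell, with a median log2 fold change of -1.40, beside -0.08 over all genes. Clcf1, a cytokine that signals through Cntfr, held 4.13, 2.46 and 1.26 CPM in injury, against 185, 186 and 4.21 CPM in controls 1, 2 and 3 (log2 fold change -6.14, adjusted p = 4.18e-04, edgeR). The receptor chain Osmr, which binds oncostatin M, fell by 4.74 on the log2 scale (adjusted p = 4.66e-04). Stat3, the transcription factor of this pathway, held 49.6, 57.9 and 46.9 CPM in injury, against 497, 230 and 58.1 CPM in controls 1, 2 and 3, and fell by 2.96 (adjusted p = 0.00409). Jak2, a kinase bound to these receptors, fell by 0.86 (adjusted p = 0.0374). Il6st, which encodes gp130, did not pass, at 341, 317 and 254 CPM in injury and 238, 336 and 248 CPM in control. Lifr, the other signalling chain of the Cntfr complex, could not be read. Clcf1 and Osmr are named after their values were seen.

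For Met, 7 of 15 listed genes of the hepatocyte growth factor pathway were tested. Of these, 1 rose and 4 fell (median -0.91), or 2 and 3 with total count scaling. Hgf, the ligand of Met, had 5.51, 8.08 and 5.87 CPM in injury, against 8.47, 65.5 and 10.3 CPM in controls 1, 2 and 3. Its call as lower (-2.32, adjusted p = 0.0316) thus rests on a high value in control 2. Spint2, an inhibitor of the proteases that activate Hgf, held 6.19, 5.27 and 7.13 CPM in injury, against 245, 340 and 3.06 CPM in control (-5.55, adjusted p = 2.14e-04). The pattern of Spint2 over the libraries had the same high and low libraries as Met. Pik3r1, a regulatory subunit of PI3-kinase, rose by 1.97 (adjusted p = 0.00284), while Cbl, a ubiquitin ligase, had -0.91 (adjusted p = 0.0191, and 0.0530 with total count scaling). Plxnb1, which can associate with Met, did not pass (0.54, adjusted p = 0.0986). Hgf and Spint2 are named after their values were seen.

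Epha7 had company in both directions among the ephrins and Eph receptors. Of 10 tested genes, from a list of 21, 5 rose and 4 fell, with a median of 1.67. Efnb3, an ephrin of myelinating and midline cells, held 406, 431 and 419 CPM in injury, against 0.257, 2.55 and 349 CPM in controls 1, 2 and 3 (8.26, adjusted p = 4.90e-04). Epha4, another receptor of axon guidance, rose by 2.80 (adjusted p = 0.00255). Efna1, an ephrin common in endothelium and epithelium, held 6.88, 6.67 and 6.71 CPM in injury, against 145, 47.2 and 6.50 CPM in control, and fell by 3.99 (adjusted p = 0.00388). Ephb4, a receptor of venous endothelium, fell by 3.16 (adjusted p = 0.00125), and Epha2, common in epithelium, had a log2 fold change of -5.01 (adjusted p = 9.32e-04). Epha4 and Epha2 are named after their values were seen.

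Pdgfd and its receptor differed in direction against controls 1 and 2, a fit in which Pdgfd did not pass with total count scaling. Against control 3 the log2 fold changes were 0.47 for Pdgfd and 0.24 for Pdgfrb, and both genes were higher in control 2 than in control 1. Of 4 tested genes of the PDGF pathway, from a list of 8, 0 rose and 2 fell (median -2.11). Pdgfrb, the receptor of Pdgfd, held 7.92, 5.27 and 5.03 CPM in injury, against 43.9, 170 and 5.35 CPM in controls 1, 2 and 3, with a log2 fold change of -4.00 (adjusted p = 0.00162). Pdgfb, the other ligand that binds this receptor strongly, fell by 3.25 (adjusted p = 0.00137). Pdgfra, a receptor of oligodendrocyte precursors and mesenchyme, held 108, 94.8 and 93.5 CPM in injury and 59.8, 377 and 95.2 CPM in control, and did not pass (-0.97, adjusted p = 0.185). Pdgfa did not pass either (0.29, adjusted p = 0.417), and is named after its values were seen.

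**Figure D5:**
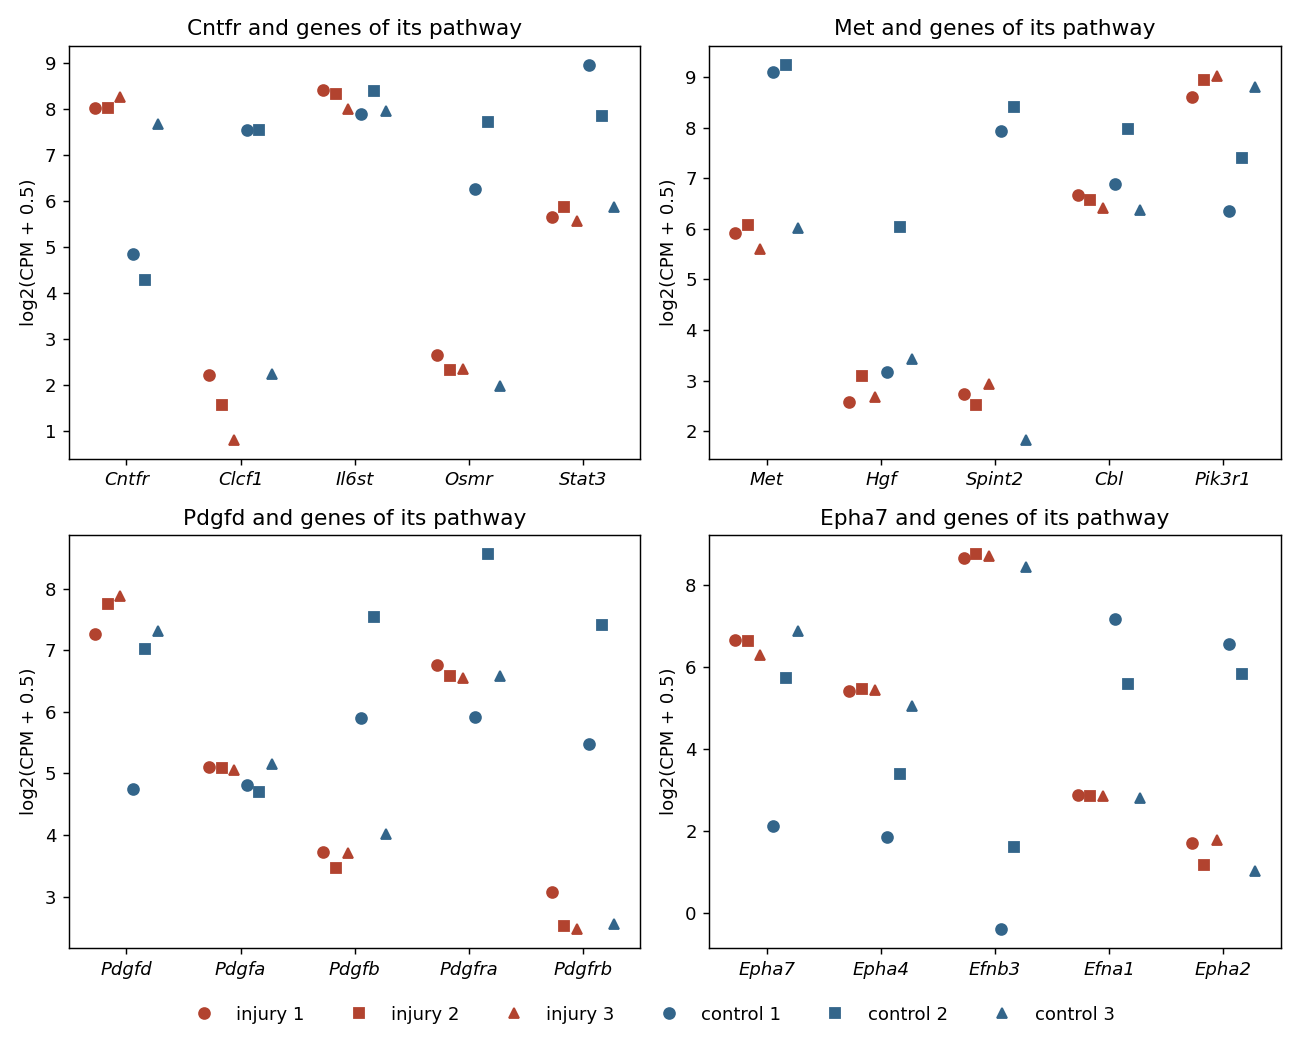
Levels of 4 members and of genes from their pathways in each library on the log2(CPM + 0.5) scale, injury in red and control in blue, with 1 symbol for each replicate number. Clcf1, Spint2 and Pdgfrb are low in the injury libraries and control 3 and high in controls 1 and 2, while Epha4 and Efnb3 are high in the injury libraries and control 3.

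The TGF-beta, Wnt and natriuretic peptide lists were read in the same way. Of 5 tested TGF-beta and BMP genes, from a list of 36, 2 rose and 2 fell (median -0.09). The BMP type II receptor Bmpr2 rose by 0.94 (adjusted p = 0.0266) and the TGF-beta family ligand Gdf11 by 2.09 (adjusted p = 0.00257), while the BMP target Id1 did not pass (-0.09, adjusted p = 0.766). Of 11 tested Wnt pathway genes, from a list of 57, 0 rose and 5 fell (median -0.98), or 4 with total count scaling. Dvl1, which relays the signal from Frizzled, fell by 0.98 (adjusted p = 0.0278), and Dvl3 and the secreted Dkk3 did not pass (-0.26, adjusted p = 0.345, and 1.20, adjusted p = 0.0504). Of 3 tested natriuretic peptide and cyclic GMP genes, from a list of 14, 0 passed, with 2 at an unadjusted p under 0.05 (median -1.77). By feature, 10770 of 15320 had such a p in edgeR against controls 1 and 2. Npr3, which clears natriuretic peptides, held 59.2, 80.4 and 81.7 CPM in injury and 4.62, 104 and 78.0 CPM in control. The other tested genes of this list were the phosphodiesterases Pde3a (-1.77, adjusted p = 0.0579, edgeR) and Pde5a (-2.16, adjusted p = 0.0657).

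Finally, the genes whose profile over the 6 libraries was most like that of a member were taken from 388 genes that lie on their own exons. Pearson's r on log2(CPM + 0.5) was 0.999 between Cntfr and Dctn3, 0.998 between Met and Ptbp3, 0.995 between Npr2 and Ubxn2b, 0.968 between Tgfbr1 and B4galt1, 0.999 between Epha7 and Cep41, and 0.997 between Pdgfd and Rad1. The next most like genes were Pip4p2 and Otud6b for Cntfr, Map3k8 and Rock1 for Met, Fam110b and Jcad for Npr2, Dnajc25 and Chd7 for Tgfbr1, Tmem209 and Trmt10b for Epha7, and Rpa3 and Inip for Pdgfd. The points of each r share their libraries, and controls 1 and 2 lie apart from the other 4, so these values describe the profile only.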

How the data were processed

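RNA sequencing counts of 3 injury and 3 control libraries were used. The deposited values are counts of read pairs per gene, made with featureCounts 2.0.1 and without strand, per the file headers. Reads that fell on more than 1 gene or mapped to more than 1 place were left out. Bowtie 0.12.2 and the builds mm8 and mm9 are listed in the submitters' processing notes. Which aligner and build lie behind these counts, and which annotation release, is not given in the sources used here. Coordinates are those of the files, set against GENCODE M21 (GRCm38) with no conversion. Marker and pathway values therefore assume that build.

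The members, all lists and the split of the controls were chosen with earlier results of these data known. CPM is the count divided by the library total. The test was edgeR 4.0.16 (R 4.3.3): TMM scaling, filterByExpr, quasi-likelihood F test, Benjamini-Hochberg adjustment over all tested features and calls at 0.05, with standard errors from the F statistic. Alternatives were RLE and total count scaling, no filter, a filter of 1 CPM in 3 libraries, DESeq2 1.42.0, limma-voom with quality weights (limma 3.58.1), a replicate block, an adjusted p of 0.01 and leaving out libraries. Reading by position (at least 100 shared bases and 90% of them on 1 gene) and total count scaling with control 3 left out were added after seeing the data. The scripts were tested on simulated data. Named genes were all 9 members, up to 3 per pathway list by mean CPM, the 3 genes most like each member of at least 5 CPM, and genes that share exonic bases with a member. Outside this rule, the genes said to be picked after their values were seen, marker genes, and Ddi1 within the span of Pdgfd are also named.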

Additional observations from a re-analysis of the deposited data

How the results depend on the processing

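Over all 6 libraries 0 members and 0 features passed in edgeR under RLE and total count scaling, the other filters, a stricter adjusted p of 0.01, reading by position and the replicate block (0 of each). To check pairing, each gene's log2 CPM was taken as its deviation from the mean of its group. These deviations correlated by 0.06, -0.14 and 0.05 between same-numbered libraries, so the numbers were not taken to pair them. DESeq2 called 1 member and 1503 features, and limma-voom with quality weights 5 and 7040. Leaving out 1 library gave 0 to 5 members and 0 to 10231 features, the highest of each without control 3 and 0 without any other. Without controls 1 and 2 the calls were 0 members and 939 features. Total count scaling with control 3 left out, chosen after seeing the data, gave 4 and 9872. RLE and total count scaling of all 6 libraries moved the median of all features to 0.04 and -0.23, and all 6 members kept their direction. Tgfbr1 turned to 0.049 without control 1 (range -0.58 to 0.049) and to 0.32 without controls 1 and 2, and Epha7 to -0.22 without controls 1 and 2. The cause was not tested. Ranges with 1 library left out were 1.32 to 3.95 for Cntfr, 0.34 to 2.41 for Epha7, -2.83 to -2.12 for Met, 0.71 to 1.68 for Npr2 and 0.75 to 2.03 for Pdgfd. Totals of 2385703 to 3921627 counts limit what can be seen of Wnt2, Wnt16 and Gdf6.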

Other observations

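Ddi1, a gene within the span of Pdgfd on the other strand, had 3.44, 2.46 and 5.87 CPM in injury 1, 2 and 3, against 35.2, 132 and 10.3 CPM in controls 1, 2 and 3. Pdgfd was lower in controls 1 and 2 (26.4 and 129 CPM) than in the other libraries, and Ddi1 was higher in them. Both genes were higher in control 2 than in control 1, and a link between them was not tested. The astrocyte marker Aldh1l1 went against the sum of its list, with 2.06, 5.27 and 6.71 CPM in injury, against 181, 42.1 and 6.12 CPM in controls 1, 2 and 3. These genes were picked after their values were seen.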
